A study of Mus musculus with 8 samples.

Results

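The nuclear-encoded subunits of the mitochondrial respiratory chain were followed in RNA-seq libraries of mouse lens capsule, the basement membrane around the lens together with the epithelial cells attached to it. Members were chosen by symbol. They were the protein-coding genes named Ndufa, Ndufab, Ndufb, Ndufc, Ndufs or Ndufv with a number, the Uqcr genes, Sdha to Sdhd, the Cox4 to Cox8 genes and the Atp5 genes, without pseudogenes. The rule found 86 of the 54532 rows of the count table, which carry 85 symbols because Atp5o has a second identifier. By complex these were 36 rows for complex I, 4 for complex II, 8 for complex III, 20 for complex IV and 18 for complex V. Ndufa4 and its paralog Ndufa4l2 were placed with complex IV, since the Ndufa4 protein is known as a subunit of cytochrome c oxidase despite its name.

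The study had 8 libraries. The 4 ASC libraries came from WT C57BL/6 mice, 6 to 8 weeks old, whose anterior lens capsule had been cut at its centre with a 26-gauge needle passed through the cornea, an injury that the submitters use as a model of fibrotic cataract. The 4 sham libraries came from WT C57BL/6 mice of the same age that had a corneal incision but an uncut lens capsule. All capsules were collected 7 days after surgery, so both groups carry a corneal wound and differ by the wound of the capsule. The replicates are described as biological, no cells were sorted, and the number of capsules or mice pooled in each library is not stated.

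The chain passes electrons from NADH (complex I) and succinate (complex II) through ubiquinone, complex III and cytochrome c to oxygen at complex IV, and the ATP synthase (complex V) uses the resulting proton gradient to make ATP. Most subunits are encoded in the nucleus and imported, while a small core is encoded by mitochondrial DNA, so each complex apart from complex II is built from the products of both genomes. In the lens, mitochondria lie in the epithelial layer under the anterior capsule and in young fibre cells, and mature fibre cells lose them. In bulk capsule RNA, a smaller number of cells of a type and less RNA per cell cannot be told apart.

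Library totals ranged from 14420494 to 21141582 counts. Of the 15857 genes tested, 162 (1.02%) passed an adjusted p of 0.05 in edgeR's quasi-likelihood test, 100 of them (0.631%) higher in ASC and 62 (0.391%) lower. Markers of lens epithelium were present in all libraries: Pax6, a transcription factor that defines lens epithelium, lay between 386.0 and 436.6 CPM in ASC and between 437.1 and 482.9 CPM in sham. Sham 3 and ASC 1 lay at opposite ends of the second principal component of all genes (20.2% of the variance). Some results that rest on sham 3 are given with and without it. CPM here are edgeR's counts scaled to the TMM-adjusted library size, and fold changes are log2 of ASC over sham with their standard error (SE).

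Promoter sequences bear on these genes because many nuclear genes of the chain are known targets of NRF1, GABPA and YY1. RefSeq windows of 300 bases (250 before and 50 after the annotated start, build GRCm38.p6) matched 69 of the 85 symbols, with 74 windows, and were set beside all 32851 windows. On both strands, TGCGCA (an NRF1 half-site, which reads the same on both strands) stood in 19 member windows (25.7%) and in 7.76% of all windows. CCGGAAG, an ETS site of the kind GABPA binds, stood in 16 member windows (21.6%) and in 8.86% of all windows. ATGGCGG, a YY1 site, stood in 11 (14.9%) and in 4.05% of all windows. At least 1 of these letter strings, none of which contains another, stood in 38 member windows (51.4%) and in 18.1% of all windows. The windows below show the only member that passed the test (Ndufa4), a complex I member with large separation between groups (Ndufb10), 2 members with both an NRF1 and an ETS match but different fold changes (Cox6a1 and Sdhd), and the member with the highest level per kilobase (Atp5b). Ndufa4 lies at chr6:11907401-11907700 (minus strand), Ndufb10 at chr17:24724374-24724673 (minus), Cox6a1 at chr5:115348909-115349208 (minus), Sdhd at chr9:50603800-50604099 (minus) and Atp5b at chr10:128083057-128083356 (plus). They are written 5′ to 3′ in the direction of the gene, and capitals mark the matches on either strand.
Ndufa4: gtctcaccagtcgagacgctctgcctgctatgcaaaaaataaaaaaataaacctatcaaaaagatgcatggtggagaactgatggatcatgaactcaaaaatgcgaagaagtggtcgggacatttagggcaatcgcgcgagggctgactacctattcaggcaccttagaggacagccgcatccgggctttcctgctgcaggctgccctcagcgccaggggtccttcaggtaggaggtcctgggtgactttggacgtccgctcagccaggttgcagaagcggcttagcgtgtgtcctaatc
Ndufb10: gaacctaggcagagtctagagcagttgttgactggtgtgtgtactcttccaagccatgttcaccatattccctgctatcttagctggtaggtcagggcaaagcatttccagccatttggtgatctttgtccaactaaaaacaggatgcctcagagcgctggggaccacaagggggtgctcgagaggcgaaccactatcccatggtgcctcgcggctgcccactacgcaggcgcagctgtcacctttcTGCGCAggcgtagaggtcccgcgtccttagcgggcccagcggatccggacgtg
Cox6a1: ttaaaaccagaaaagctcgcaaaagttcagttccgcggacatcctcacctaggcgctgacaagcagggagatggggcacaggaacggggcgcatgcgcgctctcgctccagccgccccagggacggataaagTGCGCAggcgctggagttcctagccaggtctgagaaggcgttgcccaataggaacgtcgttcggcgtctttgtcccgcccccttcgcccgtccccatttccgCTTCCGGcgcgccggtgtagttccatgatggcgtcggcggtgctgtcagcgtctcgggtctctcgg
Sdhd: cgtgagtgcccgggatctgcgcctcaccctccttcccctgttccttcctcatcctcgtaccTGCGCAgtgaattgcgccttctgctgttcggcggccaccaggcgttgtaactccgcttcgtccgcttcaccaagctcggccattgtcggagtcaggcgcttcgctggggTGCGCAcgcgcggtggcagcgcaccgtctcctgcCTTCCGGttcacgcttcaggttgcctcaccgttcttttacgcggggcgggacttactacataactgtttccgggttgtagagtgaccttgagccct
Atp5b: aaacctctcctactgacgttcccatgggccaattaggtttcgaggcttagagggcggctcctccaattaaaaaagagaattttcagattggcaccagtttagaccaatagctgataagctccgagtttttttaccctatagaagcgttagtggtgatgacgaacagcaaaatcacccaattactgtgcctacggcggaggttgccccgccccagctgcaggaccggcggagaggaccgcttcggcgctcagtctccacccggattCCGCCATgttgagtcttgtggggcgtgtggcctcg

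The Ndufa4 window held none of the 3 strings, and Sdhd, with 2 NRF1 matches and 1 ETS match, had a log2 fold change of 0.00. Members with an NRF1 match had a median log2 fold change of 0.21 (18 tested) and those without one 0.16 (50 tested). The medians were 0.17 with (16) and 0.19 without (52) an ETS match, and 0.11 with (10) and 0.19 without (58) a YY1 match. These are counts of letters in a fixed window and describe no binding. Member windows and all windows were not matched for base composition.

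Ndufa4 alone passed an adjusted p of 0.05 in edgeR with all libraries, higher in ASC capsules, and no member fell. That call was lost in several other fits, given below with complex IV. Of the 86 rows, 82 passed the filter on low counts and were tested. The 4 that did not were Cox6a2, Cox7b2 and Cox8c, which are isoforms of other tissues, and the second Atp5o row, which was listed at 0 in every library. Among the 82, 1 was called higher, against 0.631% of all genes tested, and 0 were called lower, against 0.391%. DESeq2 called 4 higher and limma-voom 1, and both called 0 lower. Over all 15857 genes DESeq2 called 593 and limma-voom 160 in either direction. At an unadjusted p under 0.05 in edgeR, 16 members were higher, against 6.82% of all genes tested, and 0 were lower, against 7.9%. In 5 members all 4 ASC libraries lay above all 4 sham libraries, against 3.39% of all genes tested, and in 0 members all lay below, against 5.67%. These 5 were Ndufa4, Cox4i1, Ndufb10, Ndufv1 and Atp5b.

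Small positive differences were shared by most members. The log2 fold change was above 0 in 74 of 82 members (90.2%) and in 51.4% of all genes tested. Without sham 3 it was above 0 in 63 of 82 members. The members' median was 0.18 and that of all genes tested 0.01, with a range over members that ran from -0.17 (Ndufb2) to 1.42 (Cox8b). The 95% confidence interval stayed inside a 1.5-fold change in either direction for 65 members and inside a 2-fold change for 78. The summed level of all members was 6179, 6221, 5986 and 5913 CPM in the ASC libraries, against 5298, 5449, 4632 and 6104 CPM in the sham libraries. Sham 4 lay above ASC 3 and ASC 4, so the sums overlapped. With scaling by library totals alone, which put the median of all genes at -0.12, the members' median was 0.06 and 54 of 82 were positive, which is 0.18 above all genes, against 0.17 with TMM.

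**Figure D1:**
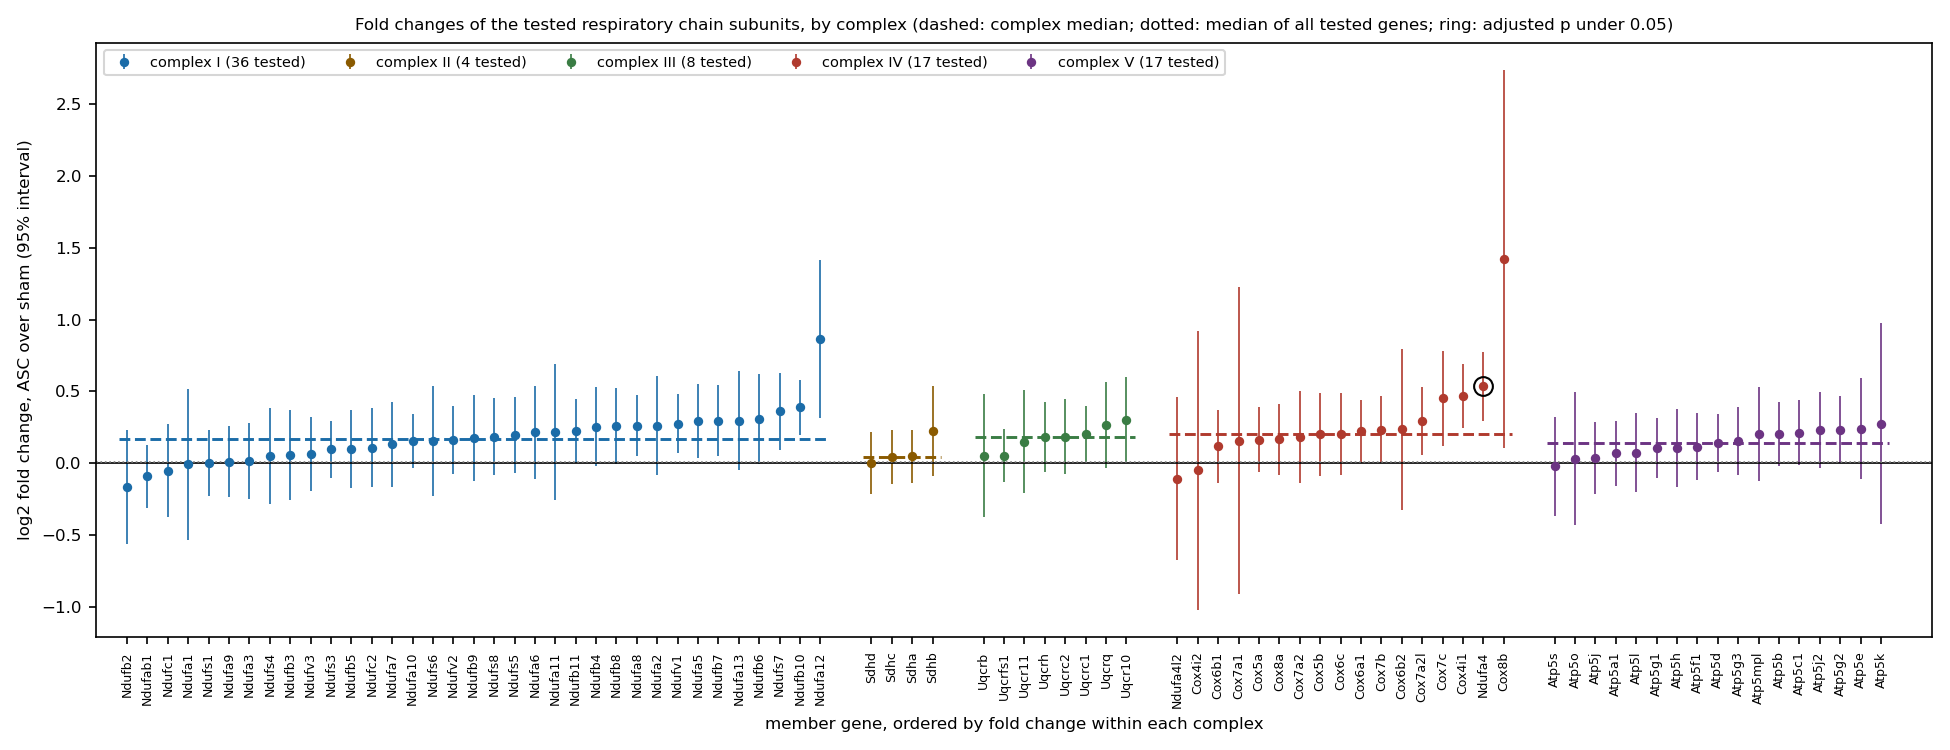
Log2 fold change of the tested members, all but 1 of complex I drawn, ASC over sham, with its 95% confidence interval, grouped by complex and ordered by size; dashed lines are complex medians, the dotted line is the median of all tested genes, and a ring marks an adjusted p under 0.05. Most points lie between 0 and 0.5, the ring is on Ndufa4 alone, and Cox8b has the widest interval.

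Complex I, NADH dehydrogenase, had 36 members, all tested, with a median of 0.17. Of these 31 were positive, 8 had an unadjusted p under 0.05, all higher, and 0 passed the adjusted threshold in edgeR, the smallest adjusted p being 0.0611. DESeq2 called 2 (Ndufa12 and Ndufb10) and limma-voom 1 (Ndufb10), against 593 and 160 of all 15857 genes in either direction. The 7 core subunits, which hold the flavin and iron-sulfur clusters and the ubiquinone site, had a median of 0.16. Ndufs7, a core subunit beside the ubiquinone site, had 35.8, 44.8, 42.0 and 46.8 CPM in ASC, against 30.3, 28.9, 32.3 and 40.6 CPM in sham (log2 fold change 0.36, SE 0.12, edgeR adjusted p = 0.201). Sham 4 lay above ASC 1, and the other sham libraries lay below all ASC libraries. Ndufv1, the flavin subunit that takes electrons from NADH, had 44.3, 50.3, 54.6 and 45.2 CPM in ASC, against 41.0, 40.9, 37.1 and 41.7 CPM in sham. The groups did not overlap, and the difference of 0.28 (SE 0.09) had an edgeR adjusted p of 0.201. Ndufs1, the largest core subunit, did not differ in the estimate (0.00, SE 0.11), with a 95% interval between -0.23 and 0.23. Ndufs3 differed by 0.10, Ndufv2 by 0.16 and Ndufs8 by 0.18.

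The accessory subunits of complex I surround the core and are needed for its assembly. The 10 Ndufb subunits, most of them in the distal part of the membrane arm, had a median of 0.24, with 9 positive. Ndufb10 had 53.7, 57.6, 60.7 and 55.5 CPM in ASC, against 43.6, 45.0, 38.9 and 46.4 CPM in sham. All ASC libraries lay above all sham libraries, and the difference was 0.39 (SE 0.09, 95% interval 0.20 to 0.58, edgeR adjusted p = 0.0611). Ndufb2 had the lowest fold change of all members, -0.17 (SE 0.18), at 7.66 ± 0.78 CPM in ASC and 8.64 ± 2.08 CPM in sham (SD, n = 4 each). Its exons overlap those of other genes, so its counts are uncertain.

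The 13 Ndufa and Ndufab subunits had a median of 0.22, with 11 positive. Ndufa12, an accessory subunit at the matrix arm, had the largest difference in complex I. It had 24.1, 36.9, 26.3 and 14.4 CPM in ASC, against 15.3, 15.1, 11.96 and 13.5 CPM in sham. ASC 4 lay inside the sham range and ASC 2 far above it, and the difference of 0.86 (SE 0.24) had an edgeR adjusted p of 0.143. Without ASC 4, Ndufa12 passed the threshold (1.05, edgeR adjusted p = 0.0144), and it was also called in DESeq2. Ndufa1, a small membrane subunit, had the highest level per kilobase in the complex, 304.0 ± 78.2 CPM per kb in ASC and 305.9 ± 82.2 CPM per kb in sham, and differed by -0.01 (SE 0.23). ASC 2 (175.9 CPM) and sham 4 (165.4 CPM) were its highest libraries. Ndufa2 differed by 0.26 (SE 0.16) and Ndufa7 by 0.13 (SE 0.14), and both overlapped between groups. Ndufab1, the mitochondrial acyl carrier protein, differed by -0.09 (SE 0.10). The 6 remaining accessory subunits (Ndufc1, Ndufc2, Ndufs4, Ndufs5, Ndufs6 and Ndufv3) had a median of 0.09, with 5 positive.

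Complex II, succinate dehydrogenase, is the only complex of the chain encoded wholly in the nucleus and also a tricarboxylic acid cycle enzyme. Its 4 members had the smallest median of the complexes, 0.05, with 0 at an unadjusted p under 0.05 in edgeR, DESeq2 or limma-voom. Sdha, the flavin subunit that oxidises succinate, had 151.2, 161.1, 144.3 and 139.4 CPM in ASC, against 146.0, 151.5, 140.7 and 139.0 CPM in sham. The groups overlapped closely (0.05, SE 0.09, 95% interval -0.14 to 0.23). Sdhb, which carries the iron-sulfur clusters, had 87.0, 74.4, 84.0 and 74.2 CPM in ASC, against 60.9, 67.3, 54.7 and 91.2 CPM in sham. Sham 4 was its highest library and the other sham libraries were its lowest, and the difference was 0.22 (SE 0.14). The membrane anchors differed by 0.04 (Sdhc, SE 0.09) and 0.00 (Sdhd, SE 0.10). With scaling by library totals alone the complex II median turned to -0.08, while that of all genes was -0.12.

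Complex III, the cytochrome bc1 complex, had 8 members, all tested and all positive, with a median of 0.18. Uqcrc1, a core protein facing the matrix, had 81.8, 88.5, 73.5 and 75.8 CPM in ASC, against 74.1, 67.0, 66.2 and 70.5 CPM in sham. Sham 1 lay just above ASC 3, and the difference was 0.20 (SE 0.09, edgeR adjusted p = 0.315). Uqcr10, a small subunit, had 42.4, 48.8, 42.4 and 54.5 CPM in ASC, against 33.0, 43.0, 31.0 and 45.8 CPM in sham (0.30, SE 0.14, edgeR adjusted p = 0.339). Sham 2 and sham 4 lay within the ASC range. Uqcrc1 and Uqcr10 were the 2 members of complex III with an unadjusted p under 0.05 in edgeR, and 0 were called in edgeR, DESeq2 or limma-voom. Uqcrq differed by 0.27 (SE 0.14), Uqcrh, the hinge protein between cytochromes, by 0.18 (SE 0.11) and Uqcr11 by 0.15 (SE 0.16). Uqcrfs1, the Rieske iron-sulfur protein that takes electrons from ubiquinol, differed by 0.05 (SE 0.08), with an interval between -0.13 and 0.24.

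Complex IV, cytochrome c oxidase, held the member that passed the test and had the largest median, 0.20, over 17 tested of 20 members. Ndufa4 had 83.4, 73.4, 68.4 and 84.0 CPM in ASC, against 47.1, 55.1, 49.0 and 62.2 CPM in sham. Every ASC library lay above every sham library, with means of 77.3 ± 7.64 CPM in ASC and 53.3 ± 6.83 CPM in sham (SD, n = 4 each). The log2 fold change was 0.54 (SE 0.11, 95% interval 0.30 to 0.78, edgeR adjusted p = 0.0424). The call was kept without ASC 2 (adjusted p = 0.0491) or sham 4 (0.0393) and lost without any of the other 6 libraries, with adjusted p between 0.0629 (without ASC 3) and 0.115 (without sham 1), and it was also lost with scaling by library totals alone (0.42, adjusted p = 0.141) and in limma-voom (0.49, adjusted p = 0.0672). The direction held in all of these fits.

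Cox4i1, the ubiquitous isoform of the subunit at which ATP inhibits the oxidase, had 277.9, 255.0, 254.1 and 258.6 CPM in ASC, against 189.7, 192.3, 162.3 and 212.7 CPM in sham. The groups did not overlap, and the difference of 0.47 (SE 0.10, 95% interval 0.24 to 0.69) had an edgeR adjusted p of 0.0553, just outside the threshold. Its exons overlap those of Emc8 on the opposite strand, and whether counting used strand is not given. Emc8 itself differed by -0.05 (SE 0.12). Cox7c, a small membrane subunit chosen after its values were seen, had 97.8, 105.5, 79.8 and 96.4 CPM in ASC, against 69.6, 73.2, 49.5 and 85.7 CPM in sham. Sham 4 lay above ASC 3, and the difference was 0.45 (SE 0.15, edgeR adjusted p = 0.203). All 12 widely expressed subunits of complex IV were positive, with fold changes between 0.12 (Cox6b1) and 0.54 (Ndufa4). Cox6a1 differed by 0.22 (SE 0.10), Cox7b by 0.23 (SE 0.11), Cox7a2 by 0.18 (SE 0.15) and Cox8a by 0.16 (SE 0.11).

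**Figure D2:**
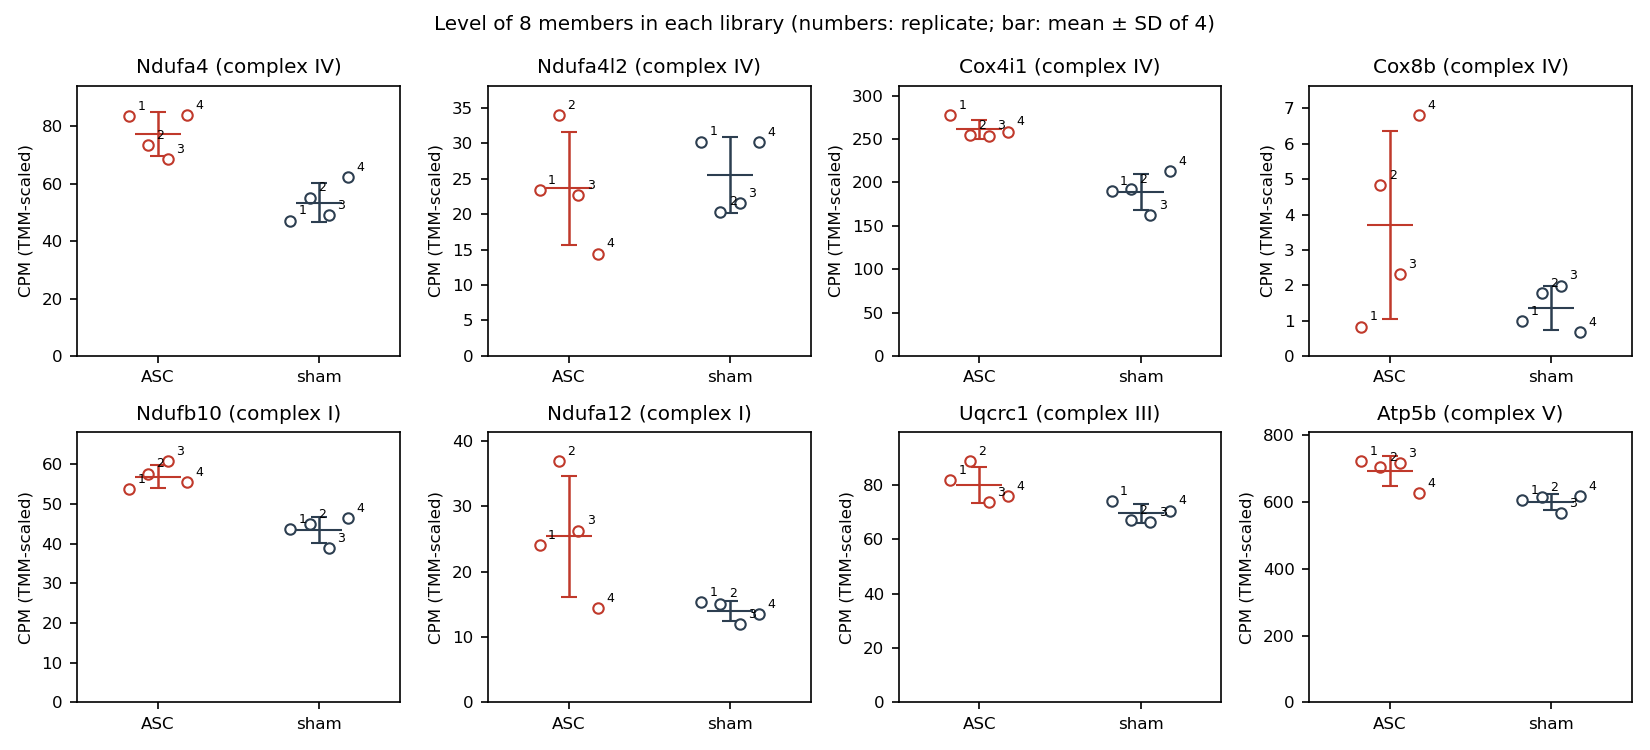
Level of 8 members in each library in TMM-scaled CPM, ASC left and sham right; circles are libraries with their replicate number, and bars are mean ± SD of 4. Ndufa4, Cox4i1, Ndufb10 and Atp5b show no overlap between groups, while the ASC values of Ndufa12 and Cox8b spread from within the sham range to well above it.

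Isoform pairs in complex IV gave a view that does not depend on the scaling of libraries. Ndufa4l2, a paralog of Ndufa4 known to be induced by HIF-1, had 23.4, 34.0, 22.7 and 14.4 CPM in ASC, against 30.2, 20.4, 21.5 and 30.1 CPM in sham, and the groups overlapped (-0.11, SE 0.25). Per kilobase, Ndufa4l2 made up 15.5%, 23.2%, 17.8% and 10.1% of the pair Ndufa4 and Ndufa4l2 in ASC, against 29.5%, 19.4%, 22.3% and 24.0% in sham. Its share averaged 16.6% ± 5.44 in ASC and 23.8% ± 4.26 in sham (SD, n = 4 each), and ASC 2 lay inside the sham range. The exons of Ndufa4l2 overlap those of Shmt2 on the opposite strand.

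Isoforms known from other tissues were low. Cox8b, the heart and skeletal muscle isoform of subunit VIII, had 0.83, 4.83, 2.31 and 6.82 CPM in ASC, against 0.98, 1.77, 1.99 and 0.67 CPM in sham, from 9 to 101 counts a library. ASC 2 and ASC 4 stood above the rest and ASC 1 was within the sham range, and the difference of 1.42 (SE 0.59) had an edgeR adjusted p of 0.304. Summed striated muscle markers lay between 9.72 and 13.2 CPM in ASC and between 5.95 and 10.4 CPM in sham, and 8 of 15 such markers were under 1 CPM in every library; their part in the Cox8b values was not tested. Per kilobase, Cox8b was 3.19% ± 2.17 of the Cox8 isoforms in ASC and 1.44% ± 0.82 in sham (SD, n = 4 each). Cox8c had 0 counts in every library, which, at 3 counts a library, allows up to 0.223 CPM in the shallowest one and covers counting error only.

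Cox6b2, the testis isoform, was the most abundant of these minor forms relative to its partner, at 8.5% ± 2.70 of Cox6b1 and Cox6b2 per kilobase in ASC and 8.02% ± 1.54 in sham. Cox4i2, the isoform known from lung and responsive to low oxygen, made up 1.13% ± 0.32 of the Cox4 pair in ASC and 1.63% ± 1.03 in sham. The muscle isoform Cox7a1 made up 1.77% ± 0.46 of Cox7a1 and Cox7a2 in ASC and 1.72% ± 0.72 in sham. Cox6a2, the muscle partner of Cox6a1, made up 0.329% ± 0.046 in ASC and 0.245% ± 0.191 in sham (SD, n = 4 each throughout). Cox7b2 had 1 count in ASC 2 and 1 in ASC 3, and 0 in all other libraries. For Cox6b2, Cox4i2, Cox7a1 and Cox6a2 the difference between groups was smaller than the SD of at least 1 group.

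Complex V, the ATP synthase, had the largest share of the members' summed level, 37.2% ± 0.47 in ASC and 38.0% ± 1.31 in sham (SD, n = 4 each), and 0 of its 17 tested members had an unadjusted p under 0.05 in edgeR, with 1 in DESeq2 and 2 in limma-voom and 0 called by any of them. Its median was 0.14, with 16 positive. Atp5b, the catalytic beta subunit of the F1 head and the member with the highest level per kilobase, had 721.7, 704.9, 716.6 and 627.1 CPM in ASC, against 606.5, 613.8, 566.6 and 617.3 CPM in sham. The lowest ASC library lay just above the highest sham library, and the difference was 0.20 (SE 0.10, 95% interval -0.02 to 0.43, edgeR adjusted p = 0.385). Atp5a1, the alpha subunit of the same head, had 403.1, 453.1, 358.6 and 387.0 CPM in ASC, against 391.6, 403.5, 368.0 and 364.8 CPM in sham, and overlapped (0.07, SE 0.10). Atp5e, the epsilon subunit of the central stalk, differed by 0.24 (SE 0.16).

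The c ring that turns in the membrane is encoded by Atp5g1, Atp5g2 and Atp5g3, which differed by 0.10, 0.23 and 0.15. The peripheral stalk that holds the head still (Atp5f1, Atp5h, Atp5j and Atp5o) had a median of 0.07, with a highest value of 0.12. The small membrane subunits Atp5j2, Atp5k, Atp5l and Atp5mpl had a median of 0.22. Atp5k, subunit e, which helps the synthase form dimers, had 13.9, 34.9, 22.1 and 18.8 CPM in ASC, against 21.7, 18.3, 11.96 and 22.5 CPM in sham, and its interval reached from -0.43 to 0.97. Atp5s, a factor that is not part of the core synthase, differed by -0.02 (SE 0.16).

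Levels per kilobase of principal transcript, which allow members to be compared with each other, spanned a wide range. The highest means were those of Atp5b (361 CPM per kb in ASC and 314 in sham), Cox4i1 (342 and 247, in the same order), Cox8a (307 and 274), Ndufa1 (304 and 306) and Atp5e (288 and 244). Ndufb2 was the lowest of the widely expressed members, at 1.75 CPM per kb in ASC and 1.98 in sham. That level rests on the 4371 bp taken as its transcript length, against a median of 787 bp over the members. As a share of the members' summed CPM, complex IV took 20.9% ± 0.65 in ASC and 19.4% ± 0.69 in sham, complex I 28.1% ± 0.31 in ASC and 28.4% ± 0.88 in sham, complex III 8.63% ± 0.16 in ASC and 8.61% ± 0.31 in sham, and complex II 5.24% ± 0.14 in ASC and 5.63% ± 0.34 in sham (SD, n = 4 each). Only the shares of complexes IV and II differed by more than the larger SD of their groups.

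The members moved together from library to library. Measured as the median deviation of log2(CPM + 0.5) from the mean of the 8 libraries, the members stood at 0.09, 0.13, 0.08 and 0.07 in the ASC libraries, against -0.12, -0.08, -0.33 and 0.13 in the sham libraries. Sham 3 was low and sham 4 was as high as the highest ASC library, while all genes tested had medians within 0.02 of 0 in every library. Sham 3 was the lowest of the 8 libraries in 58 of 82 members (70.7%), against 12.7% of all genes tested. Sham 4 was the highest in 26 members, ASC 2 in 22 and ASC 1 in 17, and sham 1 and sham 3 in 0. Complexes I, III, IV and V shared these values in sham 3, between -0.32 and -0.34, and complex II stood at -0.11.

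The spread within groups followed. The median SD of a member over 4 libraries, on the log2 scale, was 0.13 in ASC and 0.22 in sham, while over all genes tested it was 0.20 in both. Only 23 of 82 members (28.05%) had the larger SD in ASC, against 49.9% of all genes tested. Without sham 3 the median SD in sham was 0.16, and 36 of 82 members (43.9%) had the larger SD in ASC, against 53.6% of all genes tested. The members' median fold change was 0.10 without sham 3 and 0.26 without sham 4, with 8 and 36 members at an unadjusted p under 0.05 in edgeR, against 16 with all libraries. Without ASC 1 that count was 10.

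**Figure D3:**
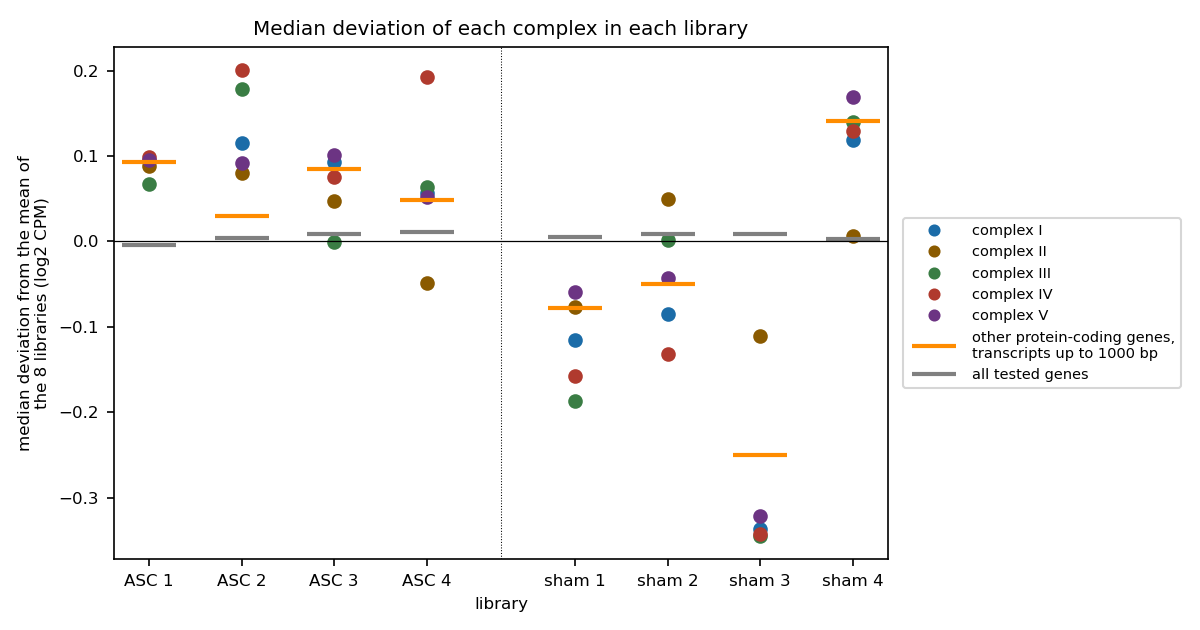
Median deviation of log2(CPM + 0.5) from the mean of the 8 libraries for each complex (points), for other protein-coding genes with transcripts up to 1000 bp (orange bars) and for all tested genes (grey bars), ASC libraries left and sham libraries right. Sham 3 is low and sham 4 high in complexes I, III, IV and V, and other short genes follow the same order in sham.

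Most members have short transcripts. Their median principal transcript was 787 bp (360 to 4715 bp), against 3174 bp over the tested protein-coding genes, and libraries were made from fragments selected by size. Fold change went with length in genes outside the chain. Other protein-coding genes up to 1000 bp (657) had a median log2 fold change of 0.13, and those over 1000 bp (12809) had 0.01. Members up to 1000 bp (49) had 0.20 and those over 1000 bp (33) had 0.10. In the shortest class, up to 600 bp, 20 members had a median of 0.20 and 106 other genes 0.19. Between 800 and 1000 bp the medians were 0.23 in 10 members and 0.10 in 321 other genes, and between 1500 and 2000 bp 0.17 in 12 members and 0.05 in 1458 other genes.

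**Figure D4:**
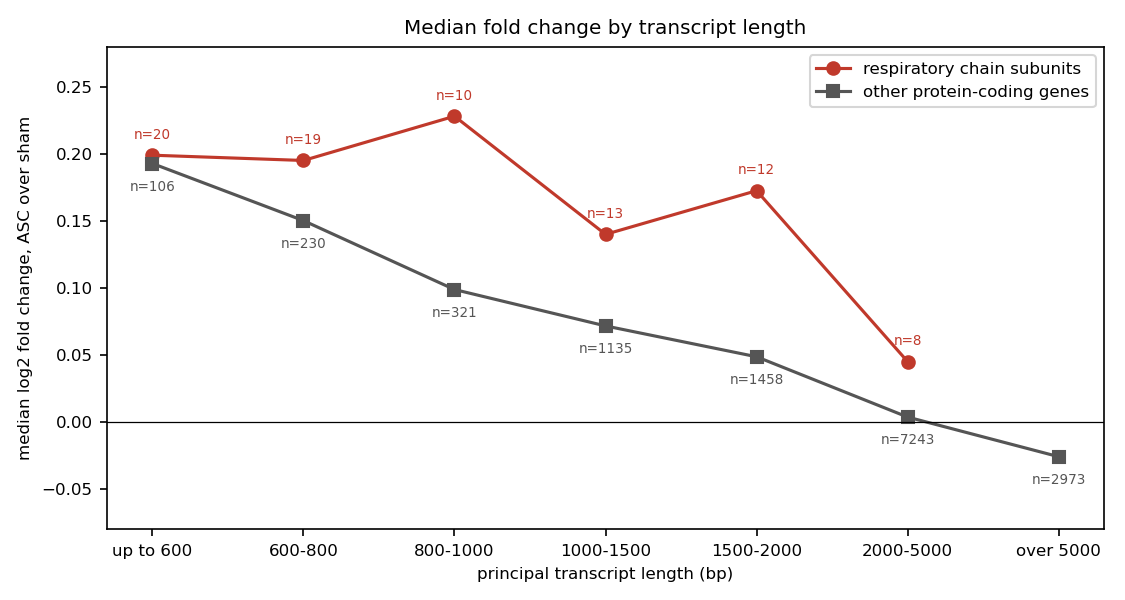
Median log2 fold change, ASC over sham, by principal transcript length for the members (red) and for other protein-coding genes (grey), with the number of genes in each class; lines only join the classes. Other genes run from 0.19 at up to 600 bp to -0.03 over 5000 bp, members lie level with them in the shortest class and above them in the others, and no member is over 5000 bp.

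Short genes outside the chain also stood at -0.25 in sham 3 and at 0.14 in sham 4. In a fit added after the data were seen, which removed each library's own trend with transcript length, the members' median was 0.02 and that of all genes -0.04, 48 of 82 members were positive and 0 were called. In that fit Ndufa4 differed by 0.34 (edgeR adjusted p = 0.116) and Cox4i1 by 0.30. A difference of 0.06 between the members' median and that of all genes remained in it, against 0.17 with the trend left in. What lies behind the trend with length, and its part in the members' values, was not tested.

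**Figure D5:**
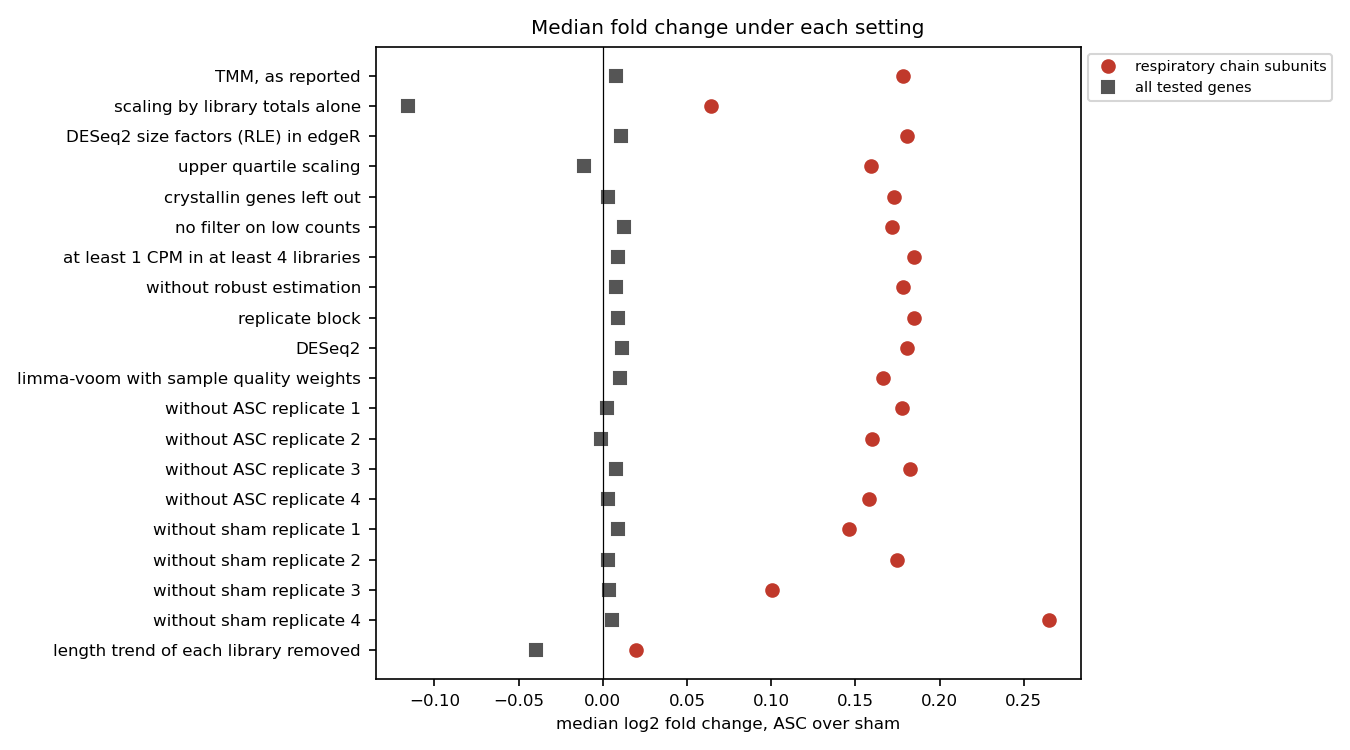
Median log2 fold change of the members (circles) and of all tested genes (squares) under each setting, including each library left out in turn. The members' median lies above that of all genes in every setting shown, it is lowest with the length trend removed (0.02) and highest without sham 4 (0.26).

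Other genes of mitochondrial energy metabolism were taken from 7 lists. Of 51 assembly factors, which insert cofactors and build the complexes, 49 were tested, with a median of 0.004. At an adjusted p under 0.05, 0 rose and 1 fell, against 0.631% and 0.391% of all genes tested. At an unadjusted p under 0.05, 0 were higher and 6 lower, against 6.82% and 7.9% of all genes tested. These are counts of edgeR's quasi-likelihood test. DESeq2 called 2 lower (Cox17 and Tmem126b, which is named because of its value there) and limma-voom 1 (Cox17). Over all 15857 genes these tools called 593 and 160 in either direction. The one that fell in edgeR was Cox17, the copper chaperone that delivers copper for complex IV. It had 2.55, 2.82, 2.37 and 1.21 CPM in ASC, against 5.06, 5.04, 4.89 and 7.07 CPM in sham. All ASC libraries lay below all sham libraries (-1.29, SE 0.27, edgeR adjusted p = 0.0466). The call was lost without any library other than ASC 2, with adjusted p up to 0.122, with the replicate number as a block (0.0884), with a filter of at least 1 CPM in at least 4 libraries (0.0530) and without robust estimation (0.0520), with fold changes between -1.42 and -1.09 over all libraries left out.

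The 13 subunits encoded by mitochondrial DNA summed to 22001, 19901, 22330 and 17925 CPM in ASC, against 15012, 19608, 17194 and 17760 CPM in sham. ASC 4 lay within the sham range. The genes contributed unevenly to the sum. Mean levels in ASC were 6237 CPM for mt-Co1 and 4405 CPM for mt-Cytb, but 44.5 CPM for mt-Co2, 29.2 for mt-Atp6 and 24.9 for mt-Co3. Lower still were mt-Nd3 (16.7 CPM), mt-Nd4l (6.26 CPM) and mt-Atp8 (0.44 CPM, not tested for a difference). The sum therefore says little about these low genes, and why their counts were low was not tested. Of the 12 tested, 12 were positive, with a median of 0.26, and 0 were called in edgeR, against 1.02% of all genes tested. At an unadjusted p under 0.05 there were also 0, against 6.82% higher and 7.9% lower of all genes tested. In that list mt-Co1, a catalytic subunit of complex IV, differed by 0.22 (SE 0.15), and mt-Cytb, the haem subunit of complex III, by 0.24 (SE 0.14). Sham 1 was the lowest library for these genes, while sham 3 was the lowest for the summed nuclear members. DESeq2 and limma-voom also called 0 of them, with 4 and 5 at an unadjusted p under 0.05, all higher.

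In the 5 other lists edgeR called 0 genes in either direction, against 1.02% of all genes tested. At an unadjusted p under 0.05, 8 were higher and 6 lower, against 6.82% and 7.9% of all genes tested. DESeq2 called 3 genes of these lists higher (Hspe1, Pink1 and Sqstm1) and limma-voom 0, against 593 and 160 of all 15857 genes in either direction. Electron carriers and ubiquinone synthesis (21 tested) had a median of 0.08, with Etfa, which feeds electrons from fatty acid oxidation, at 0.28 (SE 0.11) and Cyc1, the cytochrome c1 of complex III, at 0.13 (SE 0.09). The tricarboxylic acid cycle and pyruvate dehydrogenase (27 tested) had a median of 0.08, with Idh2, a mitochondrial isocitrate dehydrogenase, at -0.04. Import, outer membrane and carrier genes (29 tested) had a median of 0.11, with the ADP/ATP carrier Slc25a4 at 0.19 and the phosphate carrier Slc25a3 at 0.19. Fusion, fission and mitophagy genes (14 tested) had a median of 0.12, with the mitophagy receptor Bnip3l at -0.02 and Sqstm1, an adaptor of autophagy, at 0.36 (edgeR adjusted p = 0.107). Regulators of mitochondrial biogenesis (25 tested) had a median of -0.003, with Yy1 at 0.13 (SE 0.09) and Gabpa, whose site was searched above, at -0.0009 (SE 0.11).

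Markers of other cells were set beside the members. Calls among them are those of edgeR at an adjusted p under 0.05. Over all genes tested, 0.631% were called higher and 0.391% lower. Lens fibre markers summed to between 83326 and 179166 CPM in ASC and between 66760 and 123777 CPM in sham. Of 20 tested, 2 were called higher (Cryga and Cryge). Their median fold change was 1.18, with 19 of 20 positive, against 51.4% of all genes tested. Cryba1 and Crygs, the most abundant of that list, differed by only 0.16 (SE 0.23) and 0.22 (SE 0.26). Corneal epithelial markers summed to between 5339 and 6730 CPM in ASC and between 5252 and 5816 CPM in sham. Clu and Aldh3a1 made up most of that sum, with means of 5447 and 592 CPM in ASC and 4898 and 483 CPM in sham. Of 8 tested, 2 were called higher (Krt5 and Krt12). Krt5 and Krt12 had means of 10.04 and 4.27 CPM in ASC and 0.84 and 0.43 CPM in sham. The sum therefore says little about these keratins. Pigment cell markers summed to between 312 and 1009 CPM in ASC and between 121 and 344 CPM in sham, with a median of 1.80 and 0 of 10 called. Red cell markers summed to between 73.9 and 370 CPM in ASC and between 40.1 and 62.8 CPM in sham, with a median of 2.02 and 0 of 5 tested called. Lens epithelial markers, between 166064 and 245264 CPM in ASC and between 158819 and 224387 CPM in sham, overlapped. Cryaa and Cryab made up most of that sum, with means of 152491 and 38265 CPM in ASC and 143845 and 35500 CPM in sham. Retinal markers summed to between 2245 and 4246 CPM in ASC and between 1162 and 4757 CPM in sham, where sham 3 was the highest of all libraries, and their median fold change was 0.57 with 0 of 12 called. Macrophage markers summed to between 28.3 and 101.3 CPM in ASC and between 13.2 and 60.7 CPM in sham, with a median of 0.87 and 0 of 13 called. Smooth muscle and pericyte markers summed to between 12.6 and 67.7 CPM in ASC and between 12.9 and 18.7 CPM in sham, and endothelial markers to between 16.1 and 25.0 CPM in ASC and between 14.8 and 27.6 CPM in sham. The smooth muscle myosin Myh11 was higher in all 4 ASC libraries than in any sham library, by 3.65 on the log2 scale (SE 0.88, edgeR adjusted p = 0.131). It had 4.40, 10.4, 50.5 and 10.1 CPM in ASC, and ASC 3 also gave the highest sum of its list. The other tested smooth muscle and pericyte markers overlapped between groups. They were Notch3 (0.05, SE 0.31), Abcc9 (0.07, SE 0.35), Rgs5 (0.45, SE 0.79) and Cspg4 (0.76, SE 0.50). The part of these cells in the members' values was not tested.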

How the data were processed

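The deposited table held raw read counts, 1 row a gene, as the authors' counting gave them. CASAVA, fastp, HISAT2 2.0.5 and featureCounts 1.5.0-p3 are named, per the submitters' processing notes. The genome build, annotation, strand setting and treatment of reads matching several genes were not given in the sources used here. Exons of 30 member symbols overlap another gene's in GENCODE vM21, and processed pseudogenes of several members exist, so their counts are uncertain.

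All 8 libraries were fitted in edgeR 4.0.16 (R 4.3.3, TMM, filterByExpr, robust quasi-likelihood F test without covariates), tested on simulated data, with Benjamini-Hochberg adjustment over all 15857 genes tested. DESeq2 1.42.0 and limma 3.58.1 were alternatives. Length was the principal transcript's in GENCODE vM21. Counts are of reads, not molecules.

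The members, lists and tests were chosen with earlier results of these data known. Genes named are Ndufa4; members past the threshold; the 3 highest per kilobase and the 3 largest fold changes of each complex; isoform pairs; and from each list up to 4 called genes or else the 2 most abundant. Others named were chosen after their values were seen. Values of 1 member and 1 listed gene that this rule or the order of the text would name are not reported here, but both stay in all fits, counts and medians.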

Additional observations from a re-analysis of the deposited data

Results flagged for a closer look

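In 78 groups of 4 libraries, the library at one end was compared with the others of its group, and 3 stood apart by Dixon's test at the 95% level. Chance gives about 1 in 20 groups. Ndufa1 in ASC 2 was 175.9 CPM, against 107.4 to 118.7 CPM in the other ASC libraries. Atp5g2 in ASC 4 was 75.1 CPM, against 67.0 to 68.2 CPM in the other ASC libraries. Cox7a2 in sham 4 was 82.9 CPM, against 52.3 to 56.8 CPM in the other sham libraries.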

How the results depend on the processing

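The count of 1 member called became 0 with library totals alone or with the length trend removed (added after the data were seen), 3 at an adjusted p under 0.1, 4 in DESeq2 (Cox4i1, Ndufa12, Ndufa4 and Ndufb10), 6 with no low-count filter (those and Cox7c and Cox8b), and 0 to 1 with a library left out. In limma-voom it was 1, but Ndufb10 in place of Ndufa4 (0.49, adjusted p = 0.0672). Over all genes, 712 were called with no filter, 593 in DESeq2 and 56 to 228 with a library left out, against 162. The cause was not tested.

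The members' median was 0.0196 with the length trend removed and 0.10 to 0.26 with a library left out. With the trend removed it was 0.0197 in complex I and 0.0365 in complex IV, and with library totals -0.0774 in complex II. With a library left out it was 0.09 to 0.28 in complex I, 0.02 to 0.07 in II, 0.13 to 0.25 in III, 0.16 to 0.31 in IV and 0.09 to 0.19 in V.

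With the replicate number as a block, 1 member was called (Ndufa4, adjusted p = 0.0425) and the members' median was 0.19. Same-numbered libraries correlated at 0.217, 0.0573, 0.214 and -0.0897, so the numbers were not taken as pairs.

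Over 46 named genes and 19 alternatives there were 873 values: 796 kept direction and side of the threshold, 19 lost the call, 11 gained it and 47, of 19 genes, changed sign, 0 of them with a call in either fit. With library totals alone, Atp5a1 was -0.049, Sdha -0.076, Sdhc -0.079, Sdhd -0.12 and Yy1 -0.00013. With the length trend removed, Cox6b1 was -0.072, Cox7a1 -0.053, Cox8a -0.038, Ndufa7 -0.075, Sdhd -0.12, Uqcr11 -0.064 and Uqcrh -0.018. Sdhd was also -0.017 with upper quartile scaling, -0.0030 without crystallins and -0.0093 with no filter. With the block, Cox4i2 was 0.11, Gabpa 0.0034 and Ndufa1 0.0050, and in limma-voom Cox4i2 was 0.23 and Bnip3l 0.0018. Gabpa was also 0.0024 with DESeq2 size factors, 0.0021 with the 1 CPM filter and 0.0022 in DESeq2. With a library left out, Ndufa1 was -0.21 to 0.14, Sdhd -0.052 to 0.053, Sdhc -0.0019 to 0.075, Atp5k -0.026 to 0.45, Cox4i2 -0.36 to 0.20, Cox6b2 -0.0041 to 0.38, Cox7a1 -0.077 to 0.64, Ndufa4l2 -0.34 to 0.062, Gabpa -0.043 to 0.085, Idh2 -0.11 to 0.021 and Bnip3l -0.11 to 0.071. Cox7a1 was not tested with the 1 CPM filter. The members' median deviation spanned -0.33 to 0.13 over the sham libraries alone, more than their median fold change of 0.18.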
